A study of Mus musculus with 6 samples.

Results

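The genes of mitochondrial dynamics and mitophagy described here, 10 in all, were taken from a count table of the mouse podocyte line MPC5, by matching gene names: Mfn1, Mfn2, Opa1, Dnm1l, Fis1, Mff, Pink1, Bnip3, Bnip3l and Fundc1. All 10 were among the 21719 genes of the table, and all 10 were among the 13509 genes with enough reads to be tested. Mitochondria fuse and divide continuously. The mitofusins join outer membranes and OPA1 joins inner membranes, while DRP1, the product of Dnm1l, is drawn to the surface by receptors such as MFF and cuts the organelle. Mitophagy removes damaged or surplus mitochondria, either through the kinase PINK1 and ubiquitin marks on the mitochondrial surface or through outer-membrane receptors such as BNIP3, NIX (the product of Bnip3l) and FUNDC1. Podocytes, the filtering cells of the glomerulus, are long-lived and depend on such turnover, and mitochondrial fission in podocytes has been studied in diabetic kidney disease.

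The series holds 6 RNA-seq libraries in 2 groups of 3, all from MPC5 cells in high glucose: one group is labelled Setdb2WT, the other Setdb2KO. MPC5 is a conditionally immortalised line, and the labels do not say whether the knockout cells came from 1 clone, nor whether cultures were kept apart for the 3 replicates. The p-values therefore measure only the spread between these libraries, which may be technical. The comparison asks which transcripts differ when Setdb2, a gene assigned to histone H3 lysine 9 methylation, is knocked out. Because no group in normal glucose was used here, nothing below concerns the effect of glucose.

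The check of the labels comes first. Setdb2 had 12, 10 and 9 reads under the label Setdb2WT, but 17, 15 and 25 under Setdb2KO, so it was not lower where the label says knockout. For this reason the libraries are called WT-labelled and KO-labelled, and each direction below is KO-labelled over WT-labelled. Whether the edit leaves the transcript in place or the labels are exchanged was not tested, and an exchange would reverse every direction given. Total reads were 36461449 to 37129174 per library. Within the KO-labelled libraries, replicate 2 stood apart: its chi-square per degree of freedom was 8.36 and 14.8 against the other libraries of its group, which differed from each other by 4.22, while WT-labelled pairs gave 2.51 to 2.65. Of the podocyte markers, Wt1 had at most 2 reads and Lmx1b at most 1 in any library. Of the 9 tested, 4 were higher, 4 lower and 1 not past the threshold: Podxl had 1695 to 1828 WT-labelled and 176 to 203 KO-labelled reads (10.2-fold lower), Synpo was 1.72-fold lower and Cd2ap 1.53-fold higher. Of 6 tubular markers in the table, 2 had at most 25 reads in each library, and of the 4 tested, Aqp1, Cdh16 and Lrp2 were 9.05-fold, 1.71-fold and 1.32-fold lower and Cubn was 1.68-fold higher. The summed tubular markers, most of them reads of Aqp1 and Cdh16, were 1090 to 1104 CPM (reads relative to library size, scaled by edgeR's TMM factors) in the WT-labelled libraries and 433 to 455 CPM in the KO-labelled ones. The 7 mesangial and fibroblast markers summed to 58.6 to 64.0 and 20.1 to 23.6 CPM. Acta2 alone made up most of that sum (means 42.1 and 15.5 CPM), and 3 of the 7 had at most 25 reads in each library. These shifts run alongside the differences below, and their part in them was not tested. In bulk RNA, fewer cells of a kind and less RNA per cell cannot be told apart.

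Among the 10 genes, Bnip3 fell 2.87-fold in the KO-labelled libraries and Fundc1 1.53-fold, while Mff rose 1.48-fold, Pink1 1.27-fold and Opa1 1.19-fold. Mfn1, Fis1, Dnm1l and Mfn2 were lower by 1.23-fold, 1.16-fold, 1.11-fold and 1.08-fold, and Bnip3l did not pass the test. In all, 3 genes were higher, 6 lower and 1 not past an adjusted p of 0.05 (edgeR, quasi-likelihood F test, Benjamini-Hochberg over all genes tested). Of all genes tested, 83.8% passed (41.5% higher and 42.3% lower), which is close to 9 of 10, so the count of calls says nothing particular about these genes. At least 2-fold changes were found for 1 of the 10 genes, against 32.6% of all genes tested. The median absolute log2 fold change was 0.27 over the 10 genes and 0.66 over all genes tested, and 9 of the 10 lay below that median. All genes tested include many with far fewer reads than these 10, and neither comparison of sizes was matched for read level.

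The library scaling decides some of these calls. Scaling by total counts in place of TMM moved the median log2 fold change of all genes up by 0.15. The median of the 10 genes then went from -0.13 to 0.02, and the calls from 3 higher and 6 lower to 4 higher and 3 lower; over all genes they went from 5607 higher and 5711 lower to 6550 and 4833. Bnip3, Fundc1, Mfn1, Mff, Pink1 and Opa1 kept their direction and call under each of the 15 alternatives run. The other 4 genes (Mfn2, Dnm1l, Fis1 and Bnip3l) did not.

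**Figure D1:**
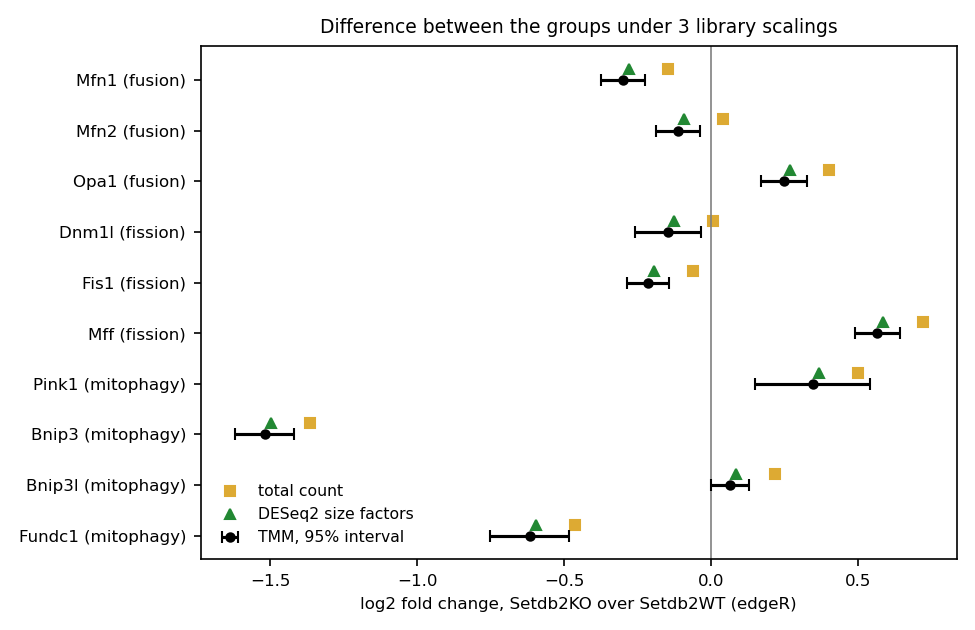
Log2 fold change of each gene (x axis; KO-labelled over WT-labelled libraries) from edgeR's fit with TMM scaling (circles, with 95% intervals), with DESeq2's size factors (triangles) and with total counts alone (squares). Bnip3 at -1.52 lies far to the left of the other genes, and Mfn2 and Dnm1l cross 0 under total-count scaling.

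The fusion genes come first. Mfn1, an outer-membrane GTPase that tethers mitochondria to each other, stood at 112, 113 and 111 CPM in the WT-labelled libraries and at 91.9, 93.1 and 88.2 CPM in the KO-labelled ones. All 3 KO-labelled libraries lay below the other group. The groups were apart in this way for 10 of the 10 genes and for 84.6% of all genes tested (KO-labelled above in 42.0%, below in 42.7%). The fit put the log2 fold change at -0.30 (SE 0.03; adjusted p = 1.8e-06, edgeR), and -0.15 under total-count scaling, still past the threshold.

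Mfn2, its paralog, which also links mitochondria to the endoplasmic reticulum, had 108, 110 and 108 CPM against 97.7, 102 and 102 CPM. The groups did not overlap, but the raw reads did: 3784, 3876 and 3767 against 3781, 3961 and 3909. The log2 fold change of -0.11 (SE 0.03; adjusted p = 0.0076, edgeR) turned to 0.04 under total-count scaling (adjusted p = 0.27), and without Setdb2KO replicate 1 it missed the threshold (adjusted p = 0.052). No direction can be given for Mfn2 that does not rest on the scaling.

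Opa1, the inner-membrane GTPase that also shapes cristae, moved against Mfn1. It had 113, 113 and 114 CPM in the WT-labelled libraries and 134, 129 and 140 CPM in the KO-labelled ones, without overlap. Its change on the log2 scale was 0.25 (SE 0.04; adjusted p = 1.7e-05, edgeR) and 0.40 under total-count scaling. Without Setdb2KO replicate 2, where Opa1 was lowest of its group, it was 0.28.

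Of the fission genes, Mff changed most. MFF is a tail-anchored receptor that brings DRP1 to the outer membrane. Mff had 70.4, 67.7 and 71.0 CPM in the WT-labelled libraries and 103, 103 and 104 CPM in the KO-labelled ones. The 3 higher libraries differed by less than counting error alone gives on average (chi-square per degree of freedom 0.039), and the groups lay far apart relative to their spread. The rise was 0.57 on the log2 scale (SE 0.04; adjusted p = 2.0e-09, edgeR) and stayed between 0.53 and 0.72 over the alternatives.

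Fis1, a small outer-membrane protein long assigned to fission, went the other way, from 117, 114 and 116 CPM to 99.99, 101 and 97.9 CPM. On the log2 scale it fell by 0.21 (SE 0.03; adjusted p = 3.7e-05, edgeR). Under total-count scaling it was -0.06 and did not pass (adjusted p = 0.11).

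Dnm1l, which encodes the fission GTPase itself, had 121, 117 and 120 CPM against 113, 97.2 and 114 CPM. Its low value in Setdb2KO replicate 2, 3762 reads beside 4383 and 4378, set it apart from the other 9 genes: the chi-square per degree of freedom among the KO-labelled libraries was 32.6, against 1.14 in the other group. On the log2 scale the change was -0.15 (SE 0.05; adjusted p = 0.019, edgeR) with that library and -0.07 without it (adjusted p = 0.043). It missed the threshold with genes kept only at a CPM of at least 1 in 3 libraries (adjusted p = 0.083), and without Setdb2WT replicate 1 (adjusted p = 0.067) or replicate 3 (adjusted p = 0.061), and was 0.01 under total-count scaling (adjusted p = 0.88). Dnm1l therefore has a value here but no direction that holds across settings.

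**Figure D2:**
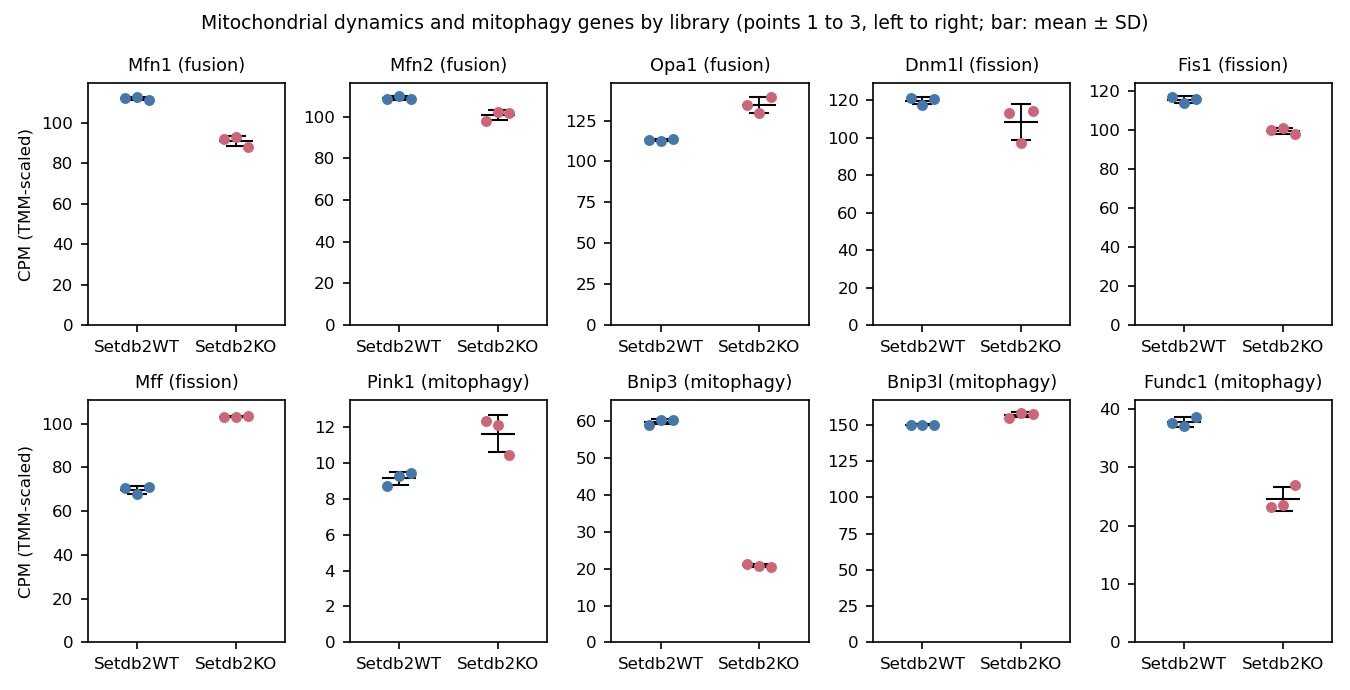
TMM-scaled CPM (y axes from 0) of each gene in the 3 libraries of each group (points, replicates 1 to 3 from left to right), with the mean and SD. Mff, Opa1 and Pink1 sit higher and Bnip3 and Fundc1 lower in the KO-labelled libraries, and the middle Dnm1l point of that group, 97.2 CPM, lies below the other 2.

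The mitophagy genes follow. Pink1, the kinase that builds up on depolarised mitochondria and phosphorylates ubiquitin there, was the least abundant of the 10, with 305, 327 and 328 reads against 476, 469 and 401. In CPM these were 8.73, 9.28 and 9.43 against 12.3, 12.1 and 10.5, so all 3 KO-labelled libraries were higher, replicate 3 by the least. This is a log2 fold change of 0.35 (SE 0.09; adjusted p = 0.0027, edgeR) and 0.50 under total-count scaling.

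Bnip3, a receptor that binds LC3 directly and that hypoxia-inducible factors (HIF) induce, gave the largest difference of the 10. It had 2066, 2125 and 2099 reads in the WT-labelled libraries and 824, 808 and 786 in the KO-labelled ones. The levels were 59.9 ± 0.70 CPM and 20.9 ± 0.41 CPM (SD, n = 3 each). The fit put the log2 fold change at -1.52 (SE 0.05; 95% interval -1.62 to -1.42; adjusted p = 8.7e-13, edgeR's quasi-likelihood test), and it ran from -1.54 to -1.37 over the alternatives.

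Bnip3l, its closest paralog and the receptor that clears mitochondria from maturing red cells, stayed near its WT-labelled level. It had 150, 150 and 150 CPM against 155, 158 and 157 CPM, a narrow gap without overlap. Its change on the log2 scale was 0.06 (SE 0.03; 95% interval -0.0014 to 0.13; adjusted p = 0.064, edgeR), not past the threshold. It passed as higher under 5 alternatives, among them total-count scaling (0.22; adjusted p = 1.1e-05) and DESeq2's size factors (0.09; adjusted p = 0.016). Bnip3l-ps, a pseudogene copy by its name but annotated as protein-coding, had 285 to 324 WT-labelled and 313 to 341 KO-labelled reads. Its log2 fold change was -0.04 (adjusted p = 0.72, edgeR). How reads were split between it and Bnip3l is uncertain.

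Fundc1, an outer-membrane receptor tied to hypoxic mitophagy, had 37.5, 37.0 and 38.7 CPM against 23.3, 23.6 and 27.0 CPM. All 3 KO-labelled libraries were lower, replicate 3 by the least. Fundc1 fell by 0.62 on the log2 scale (SE 0.06; adjusted p = 4.0e-07, edgeR), or -0.46 under total-count scaling.

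Because a ratio of 2 genes in the same library does not depend on the scaling, 4 pairs with related roles were also compared in that form. The Bnip3 to Bnip3l read ratio was 0.394, 0.402 and 0.403 in the WT-labelled libraries and 0.137, 0.132 and 0.130 in the KO-labelled ones, a 3.00-fold lower ratio. The Mff to Fis1 ratio went from 0.601, 0.595 and 0.612 to 1.03, 1.02 and 1.06, or 1.72-fold higher. Both ratios were far more alike within a group than between groups, and Mff and Fis1 had nearly equal reads in the KO-labelled libraries.

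The Dnm1l to Opa1 ratio fell from 1.07, 1.04 and 1.06 to 0.843, 0.751 and 0.818, a log2 difference of -0.40, or -0.35 without Setdb2KO replicate 2. The Mfn1 to Mfn2 ratio was 1.04, 1.03 and 1.03 against 0.940, 0.910 and 0.866, a log2 difference of -0.19. None of the 4 ratios overlapped between the groups. Single genes were also apart in 84.6% of all genes tested, and ratios of other gene pairs were not computed. For each of the 4 ratios, a two-sided exact permutation test gave p = 0.1, the smallest that 3 libraries against 3 allow, and 0.1 after adjustment over the 4 ratios.

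**Figure D3:**
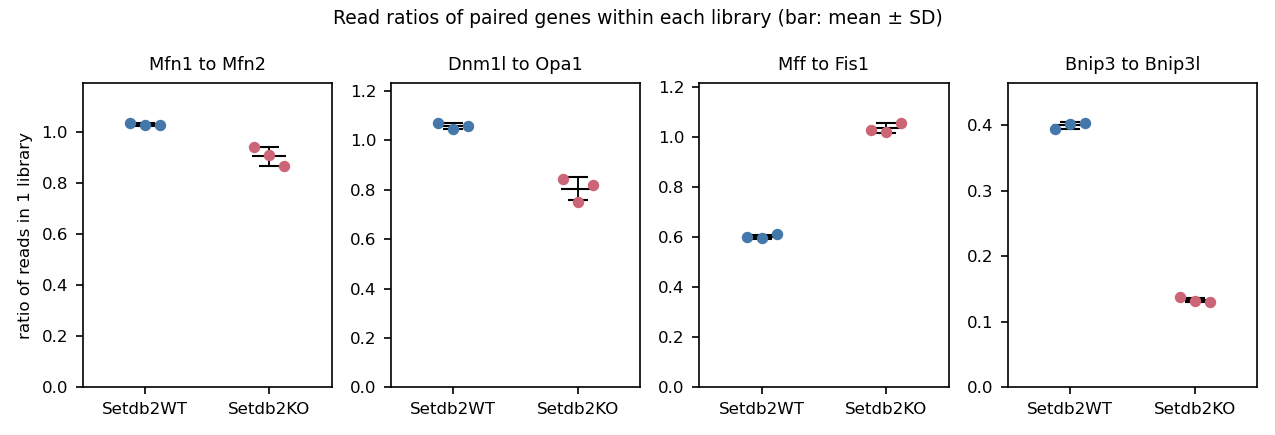
Ratio of the reads of 2 genes within each library (y axes from 0; points are replicates 1 to 3, bars the mean and SD). The Bnip3 to Bnip3l ratio is near 0.40 in the WT-labelled libraries and near 0.13 in the KO-labelled ones, and the Mff to Fis1 ratio rises from about 0.60 to above 1.0.

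Levels can be compared between genes only per length, here as CPM per kilobase of the mean GENCODE transcript with a RefSeq match. In the WT-labelled libraries the order was Fis1 (133 ± 2.0), Bnip3l (46.3 ± 0.085), Mff (42.2 ± 1.0), Dnm1l (37.7 ± 0.62), Fundc1 (37.4 ± 0.86), Bnip3 (34.1 ± 0.40), Mfn2 (25.9 ± 0.23), Mfn1 (24.6 ± 0.15), Opa1 (23.9 ± 0.13) and Pink1 (3.85 ± 0.16; SD, n = 3 each). Of these neighbours only Dnm1l and Fundc1 overlapped. In the KO-labelled libraries, Mff (62.5 ± 0.20) stood above Bnip3l (48.4 ± 0.53), Opa1 (28.4 ± 1.1) moved from place 9 to place 5, and Bnip3 (11.9 ± 0.23) from place 6 to place 9, above Pink1 alone. Fundc1 (24.4 ± 2.1) and Mfn2 (23.9 ± 0.60) overlapped there. The order depends on the lengths used: transcripts of Fundc1 run from 448 to 1983 bases and those of Opa1 from 3230 to 6230.

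Promoter sequence was looked at for the member that fell most, Bnip3, beside Pink1 and Opa1, which rose, because HIF binds the core letters ACGTG or GCGTG. The sequences are RefSeq windows of the 250 bases before each start in GRCm38.p6, a different build from that of the counts, printed up to the first base of any annotated exon. Capitals mark ACGTG or GCGTG on either strand (CACGT or CACGC on the other).
Bnip3, chr7:138909520-138909756, minus strand: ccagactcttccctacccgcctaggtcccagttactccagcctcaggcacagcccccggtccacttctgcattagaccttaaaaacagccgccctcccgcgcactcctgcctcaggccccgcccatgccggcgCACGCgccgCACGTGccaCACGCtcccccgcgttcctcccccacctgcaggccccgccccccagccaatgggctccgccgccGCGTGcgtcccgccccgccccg
Pink1, chr4:138326308-138326546, minus strand: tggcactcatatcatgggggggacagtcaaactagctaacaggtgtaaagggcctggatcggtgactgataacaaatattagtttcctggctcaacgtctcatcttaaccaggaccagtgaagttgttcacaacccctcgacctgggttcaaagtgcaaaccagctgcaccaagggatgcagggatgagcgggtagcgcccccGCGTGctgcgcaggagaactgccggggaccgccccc
Opa1, chr16:29579084-29579333, plus strand: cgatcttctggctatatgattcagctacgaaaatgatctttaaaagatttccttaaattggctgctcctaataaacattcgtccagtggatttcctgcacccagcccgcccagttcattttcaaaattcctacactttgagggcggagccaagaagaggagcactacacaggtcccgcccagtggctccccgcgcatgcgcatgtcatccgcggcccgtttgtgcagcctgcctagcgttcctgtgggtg
The Bnip3 window held 4 matches, counting once the palindrome CACGTG that starts 108 bases before the start, in a stretch with 72.4% G and C. Pink1 had 1 match and Opa1 had 0. Of 32851 windows of this length, 38.6% held at least 1 match and 1.66% held at least 4. Windows were found for 9 of the 10 genes (Bnip3l had none), 14 in all. In at least 1 window, 4 of those 9 genes held a match: Bnip3, Pink1, Mfn2 and Dnm1l. This is a count of genes, whereas the 38.6% is a share of windows. Annotated exons covered all 250 bases of the Dnm1l window with the match and of each Mff window. For Fundc1 they covered 105 bases. The windows of Fundc1, Mfn1 and Fis1, which were lower like Bnip3, held 0, as did those of Mff and Opa1, which rose. Whether matches go with the direction of change was not tested. A match describes letters only, and whether HIF bound any of these windows was not measured.

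Of 18 genes known as HIF targets, 16 were tested, and 7 rose and 9 fell. Of all genes tested, 41.5% rose and 42.3% fell. The median log2 fold change was -0.71 (0.0045 over all genes tested). It lies in a gap between Aldoa (-1.08) and Egln1 (-0.34), so it describes no single gene of this list. Pdk1, a kinase that inhibits pyruvate dehydrogenase, fell from 52.6 ± 2.0 to 4.501 ± 0.16 CPM (SD, n = 3 each), and P4ha1, a collagen prolyl hydroxylase, from 221 ± 6.6 to 78.6 ± 2.0 CPM. Vegfa, the endothelial growth factor that podocytes secrete, rose from 30.2 ± 0.64 to 63.0 ± 2.1 CPM. At least 2-fold changes, rises and falls among them, were found in 12 of the 16, against 32.6% of all genes tested. Bnip3 fell beside targets that moved in both directions, and a part of HIF in this was not tested.

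Regulators of fusion and fission changed in both directions. Of 22 listed, 18 were tested, with 6 higher, 8 lower and 4 not past the threshold and a median log2 fold change of 0.06; scaled by total counts, 10 rose and 8 fell. The proteases that cut OPA1 moved apart. Oma1, the stress-activated one, fell from 468, 450 and 453 reads to 159, 161 and 152, a log2 fold change of -1.68 (SE 0.09; adjusted p = 3.8e-10, edgeR). Yme1l1, the constitutive one, rose by 0.31 on the log2 scale (SE 0.05; adjusted p = 4.9e-05, edgeR), or 0.37 without Setdb2KO replicate 2.

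The DRP1 receptors other than MFF and FIS1 are MiD51 and MiD49, encoded by Mief1 and Mief2. Mief2 fell from 9.09 ± 0.33 to 5.58 ± 0.37 CPM (SD, n = 3 each). Mief1 had 54.2 ± 2.4 and 57.8 ± 0.59 CPM and did not pass (log2 fold change 0.09; adjusted p = 0.064, edgeR), though it did under each of the other scalings (total count 0.25, adjusted p = 1.3e-04; DESeq2's size factors 0.11, adjusted p = 0.025; upper quartile 0.11, adjusted p = 0.032), and without replicate 2 of either group (adjusted p = 0.038 without Setdb2WT replicate 2 and 0.047 without Setdb2KO replicate 2). Inf2, a formin that builds actin at fission sites, fell from 175 ± 3.1 to 46.0 ± 1.1 CPM, and Phb2, an inner-membrane prohibitin, from 278 ± 3.6 to 172 ± 7.0 CPM. Mtfp1, an inner-membrane protein that promotes fission, had only 3, 4 and 8 reads against 15, 14 and 10; its adjusted p of 0.034 in edgeR's test rose to between 0.077 and 0.12 without Setdb2WT replicate 1 or 2, or Setdb2KO replicate 1 or 2.

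Around Pink1, 16 genes of its pathway were tested, and 7 rose, 7 fell and 2 did not pass (median log2 fold change 0.0057; 9 higher and 6 lower under total-count scaling). Usp30, a mitochondrial deubiquitinase that opposes mitophagy, rose from 46.9 ± 1.3 to 89.7 ± 3.2 CPM (SD, n = 3 each). Usp15, another deubiquitinase, fell from 123 ± 4.9 to 65.2 ± 1.3 CPM, and Htra2, a protease of the intermembrane space, from 80.5 ± 0.82 to 28.4 ± 0.90 CPM. Rhot1, the Miro GTPase that links mitochondria to motors, had a log2 fold change of -0.15 (adjusted p = 0.0022, edgeR) that turned to 0.01 under total-count scaling (adjusted p = 0.83).

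Other mitophagy receptors and cargo adaptors changed in both directions. Of 16 listed, 15 were tested, with 9 higher and 6 lower and a median log2 fold change of 0.51. Of all genes tested, 41.5% were higher and 42.3% lower. Scaled by total counts, 9 of the 15 were higher and 6 lower (median 0.67). At least 2-fold changes were found in 7 of the 15, against 32.6% of all genes tested. Of these 7, Nipsnap2, Nipsnap1 and Bcl2l1 were lower, by 3.31-fold, 3.03-fold and 2.19-fold, and the rest were higher. Sqstm1, the ubiquitin-binding adaptor p62, rose from 364 ± 4.9 to 1259 ± 62 CPM (SD, n = 3 each). Map1lc3b, the LC3 protein to which BNIP3, NIX and FUNDC1 bind, rose from 99.6 ± 1.3 to 347 ± 4.8 CPM. Optn, an adaptor downstream of PINK1, and Bcl2l13, an outer-membrane receptor, rose by 0.70 and 0.51 on the log2 scale. Fkbp8, another receptor, fell from 248.8 ± 0.28 to 191 ± 4.6 CPM. These adaptors also serve autophagy of other cargo, so their levels are not a measure of mitophagy.

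Genes of mitochondrial structure were lower more often than higher, where 41.5% of all genes tested rose and 42.3% fell. Of 11 genes of the MICOS complex and its partners, which hold cristae in shape with OPA1, 0 rose, 9 fell and 2 did not pass (median log2 fold change -0.36), against 1 higher and 6 lower (median -0.21) under total-count scaling. Immt, the mitofilin core of MICOS, fell from 245 ± 0.74 to 168 ± 5.5 CPM (SD, n = 3 each), and Mtx1, an outer-membrane partner, from 76.8 ± 2.8 to 46.8 ± 3.1 CPM. Of 18 genes of protein import, channels and matrix content, 5 rose, 11 fell and 2 did not pass (median -0.36). Under total-count scaling, 6 of these rose and 11 fell (median -0.21). Vdac1, the main outer-membrane channel, fell from 298 ± 2.6 to 121 ± 3.0 CPM, and Hspd1, a matrix chaperonin with processed copies that make its count uncertain, from 1086 ± 7.6 to 442 ± 7.1 CPM. Tomm20, an import receptor often used to mark mitochondria, rose by 0.12 on the log2 scale (SE 0.03; adjusted p = 0.0021, edgeR).

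In the list of mitochondrial biogenesis and DNA upkeep, 9 of 17 genes rose, 5 fell and 3 did not pass (median log2 fold change 0.13). Of all genes tested, 41.5% rose and 42.3% fell. Scaled by total counts, 11 of the 17 rose and 4 fell (median 0.29). Ppargc1a, the coactivator PGC-1alpha, rose from 35, 17 and 19 reads to 108, 97 and 119, and Twnk, the mitochondrial DNA helicase, from 45.2 ± 2.1 to 92.0 ± 3.1 CPM (SD, n = 3 each). Pprc1, a relative of Ppargc1a, fell from 216 ± 5.8 to 147 ± 2.5 CPM. Tfam, which packages mitochondrial DNA, fell by 0.23 on the log2 scale (adjusted p = 4.5e-04, edgeR) but did not pass under total-count scaling (-0.08; adjusted p = 0.15). Of 6 tested genes of mitochondrial transport 2 rose, 3 fell and 1 did not pass, and scaled by total counts 3 rose and 3 fell. Myo19, a mitochondrial myosin, fell from 43.5 ± 2.4 to 15.3 ± 1.6 CPM and Klc1, a kinesin light chain, from 158 ± 2.2 to 111 ± 0.94 CPM.

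**Figure D4:**
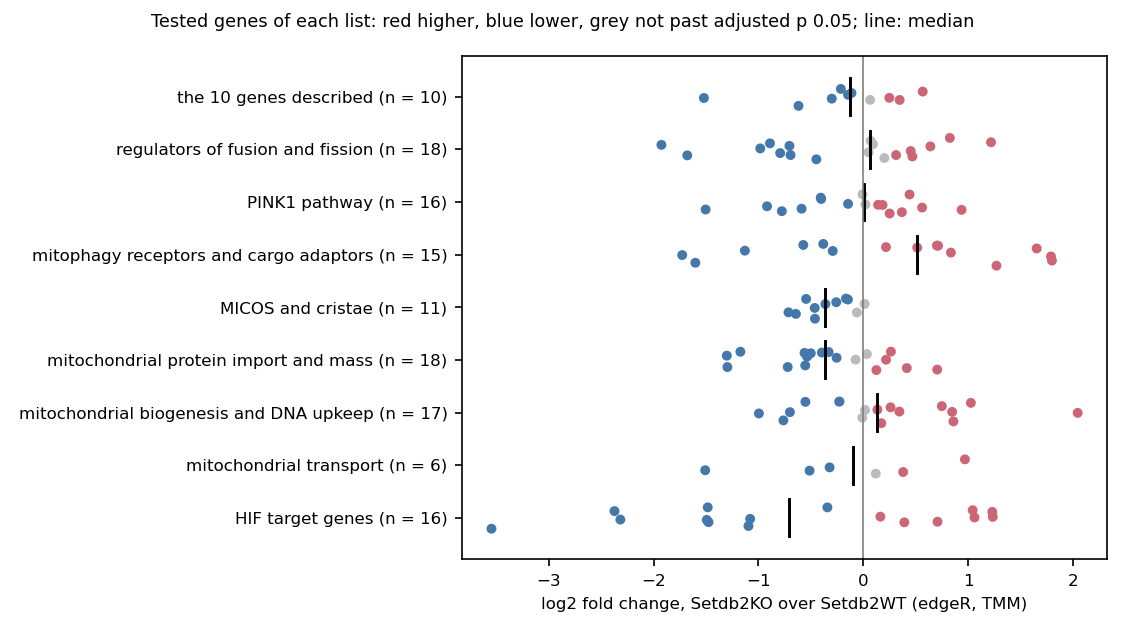
Log2 fold change (x axis) of each tested gene in the 10 genes described and in 8 lists around them; points are genes, coloured by call at an adjusted p of 0.05, and lines are medians. Bnip3 is the leftmost point of the top row, and the receptors and cargo adaptors reach from -1.73 to 1.80.

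The deposited table carries its own annotation, and further lists were drawn from it by terms picked by hand after the values were seen. Of 16 tested genes under the GO term mitochondrial fusion, 5 of them among the 10 genes, 4 rose and 12 fell (median log2 fold change -0.19), but 4 rose and 7 fell under total-count scaling. Of 14 under mitochondrial fission, which include Dnm1l, Fis1 and Mff, 7 rose, 5 fell and 2 did not pass (median 0.12), against 9 and 3 under total-count scaling. Of 81 tested genes under GO terms for mitophagy, 35 rose, 35 fell and 11 did not pass (median 0.019), against 42 and 29 under total-count scaling. Of 66 tested genes of the KEGG mitophagy pathway, 34 rose and 27 fell (median 0.16), against 37 and 20. The GO mitophagy list and the KEGG list each include 7 of the 10 genes.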

How the data were processed

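RNA from MPC5 cells in high glucose was isolated with TRIzol and sequenced after VAHTS Universal V6 library preparation, per the labels. The authors deposited 1 table of raw counts for 6 libraries; the submitters' processing notes name fastp, HISAT, HTSeq and the build GRCm39. Tool versions, gene models and strandedness were not stated in the sources at hand, so overlapping or antisense genes cannot be told apart.

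Counts were fitted with edgeR 4.0.16 (R 4.3.3): filterByExpr at a minimum count of 10, TMM, quasi-likelihood F test with genotype as the only term, Benjamini-Hochberg adjustment over 13509 genes. Each column name gave its library's label and replicate number. SE is the log2 fold change divided by the square root of F, and 95% intervals use it. The fit was tested first on simulated data in which few genes changed, evenly in both directions, with the same dispersion everywhere. In the data 83.8% of genes tested passed, so that run does not bear on the scaling here. Transcript lengths are from GENCODE M21. At 36461449 to 37129174 reads per library, genes with under about 10 reads carry wide counting error.

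Named genes were the 10 members, Setdb2, fixed genes by role, and from each list the 2 with the smallest adjusted p at a mean CPM of at least 1; marker genes, Bnip3l-ps and the GO and KEGG lists were added after the values were seen. One gene of the rule is not reported here. Members and lists were chosen with earlier results of these data known. Replicate numbers are shared between the groups, but no common deviation of same-numbered libraries was seen. Alternatives were DESeq2 1.42.0 (size factors, Wald test), limma-voom (limma 3.58.1), upper-quartile and total-count scaling, other filters, a replicate block, a stricter threshold and each library left out.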

Additional observations from a re-analysis of the deposited data

How the results depend on the processing

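The number of the 10 genes called lower went from 6 to 3 under total-count scaling, and Mfn2 and Dnm1l turned to log2 fold changes of 0.0415 and 0.00846 there (adjusted p = 0.27 and 0.88, edgeR), as did Rhot1 at 0.00874. By construction that scaling leaves out the TMM factors, 0.946 to 0.950 for WT-labelled and 1.053 to 1.059 for KO-labelled libraries. Of 150 refits of the 10 genes, 137 kept direction and call, 5 gained a call (all Bnip3l), 6 lost one (Dnm1l, Mfn2 and Fis1) and 2 turned. With the replicate number as a block, 11190 genes were called in place of 11318, and 9 of the 10 genes as without it; the block changed no call of the 10. The correlation of deviations between same-numbered libraries was 0.00072, -0.030 and -0.012, so no pairing by number was seen. It was taken over all genes tested, where counting error in genes with few reads can hide a weak pairing. Leaving out each library gave 11067 to 11496 genes and 8 or 9 of the 10. The 4 read ratios kept their sign in every run. Depth limits Mtfp1 and Setdb2, whose counts are few.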
